A study of Mus musculus with 6 samples.

Results

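The genes described here encode the proteins of the cytosolic ribosome. They were taken by symbol, as every row of the count tables named Rpl or Rps followed by a number (with the stalk proteins Rplp0 to Rplp2 and Rpsa), and 77 of the 32531 gene symbols in the files matched. Of these, 46 encode proteins of the large (60S) subunit and 31 encode proteins of the small (40S) subunit. Rows for pseudogenes were not taken.

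The data are RNA-seq counts from cerebral cortex of the adult mouse line Htr4-TRAP ES1299, 3 input and 3 immunopurified (IP) libraries, with no treatment. Translating ribosome affinity purification (TRAP) recovers RNA held by tagged ribosomes: the line carries a fusion of EGFP to the 60S protein Rpl10a, driven by Htr4, a serotonin receptor gene, and polysomes were captured with antibodies against EGFP. Input and IP libraries both come from animals carrying this transgene, and there is no line without the tag and no second line among the samples. The series names pyramidal neurons as its subject, but the tag marks any cell in which the Htr4 driver is active. The labels do not say whether replicates are separate animals, so every p-value measures only the spread between these libraries, which may be technical. The index used in library preparation was the same for every input and a different one for every IP, and the effects of index and of group cannot be told apart.

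A ribosome holds a single copy of nearly every one of these proteins on a scaffold of ribosomal RNA, with the stalk proteins Rplp1 and Rplp2 as the known exception. Their messenger RNAs belong to the 5′ terminal oligopyrimidine (TOP) class: they begin with a C followed by a run of C and T, through which the kinase mTOR and the protein Larp1 control how strongly they are translated. Ribosomal protein genes have also left many processed pseudogenes in mammalian genomes, intronless copies of their messenger RNAs. Reads that match a gene and a pseudogene equally well align to several places, and HTSeq, the counter the submitters name, puts them in a separate row and not on the gene.

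That loss bears on every level below, so the sequences come first. The first 50 coding bases of 5 of the genes are shown because they show how little separates some genes from their copies. Capitals mark bases that differ from the closest annotated pseudogene on the same strand, and an entry with no capitals has an exact copy. Sequences are from GENCODE M21 transcripts (GRCm38).
Rpl10a: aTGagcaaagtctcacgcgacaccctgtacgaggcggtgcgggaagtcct
Rpl4: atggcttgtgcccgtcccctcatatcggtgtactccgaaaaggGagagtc
Rps4x: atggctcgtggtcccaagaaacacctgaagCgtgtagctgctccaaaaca
Rpl23a: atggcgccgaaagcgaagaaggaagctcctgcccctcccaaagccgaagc
Rpl41: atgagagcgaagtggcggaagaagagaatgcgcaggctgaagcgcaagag
The stretch of Rpl10a, the tagged protein, differs from Rpl10a-ps1 at 2 bases. Those of Rpl4 and Rps4x each differ from their closest pseudogene at 1 base. For Rpl23a 7 annotated pseudogenes hold the stretch unchanged, and for Rpl41 3 do. The stretch of Rplp2, not shown, differs from its closest pseudogene at 18 bases.

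Cutting each gene's coding transcript into all words of 50 bases gave a measure of this over its whole length. A median of 44.6% of a gene's words were found in no gene elsewhere, and for 47 of the 77 genes it was under 50%. In the coding part alone the median was 8.65%, and 27 genes had no coding word of their own. Words were shared with a median of 9 pseudogenes per gene, and with 120 for Rpl7a. Rps27 had the lowest share, with 1.35% of its words its own. Rpl4 had 83.5%, with 966 of its 1211 coding words its own, and shared words with 1 pseudogene. Rpl10a had 11.9%, and only 3 of its 602 coding words were its own. The EGFP fusion carries the Rpl10a coding sequence too, so reads of the transgene and of the endogenous gene cannot be told apart there.

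Counted levels differed widely among genes whose products are needed in nearly equal numbers. Levels are in CPM, the reads on a gene scaled to a common total of reads on genes, with library totals adjusted by TMM factors. The mean input level ran from 0.11 CPM for Rpl26 to 244 CPM for Rpl4, with a median of 8.07 CPM. In IP it ran from 0.126 CPM for Rpl24, at the subunit interface, to 223 CPM for Rpl4, with a median of 9.63 CPM. Rpl4, which lines the exit tunnel, and Rps15a, of the 40S body, were the 2 genes above 100 CPM in both groups. In input, 5 genes (Rpl4, Rps15a, Rps3, Rpl27a and Rpl13a) held 44.8% of the summed CPM of all 77. In IP the 5 highest held 42.8%, with Rpl41 in the place of Rpl13a. Divided by transcript length, the input level ran from 0.209 CPM per kb for Rpl26 to 262 CPM per kb for Rps15a. The length is that of a chosen coding transcript of each gene, while reads were counted over the whole gene. For Rps15a it was 640 bases, against 6270 bases for all its annotated exons merged, so its level per kb depends on that choice.

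Levels were higher in the classes of genes with more sequence of their own. Genes with under 25% of words their own (24 genes) had a median input level of 4.07 CPM per kb. Those between 25 and 50% (23 genes) had 8.03 CPM per kb, and those at 50% or more (30 genes) had 22.9 CPM per kb. Across the 77 genes, Pearson's r between the share and the input level per kb was 0.375 and Spearman's rho 0.494, given as a description, since all points share the same libraries. There were 6 genes with at least 50% of words their own and still under 5 CPM per kb: Rpl5, Rpl12, Rpl35, Rps16, Rps20 and Rps29. In the coding part alone the share was 0% for Rpl5, Rpl12, Rps16 and Rps29, 8.36% for Rpl35 and 15.1% for Rps20. The transcript used for Rps20 has 3706 bases, of which 360 are coding, and its input level was 10.9 CPM. How far lost reads set the level of each gene was not tested.

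**Figure D1:**
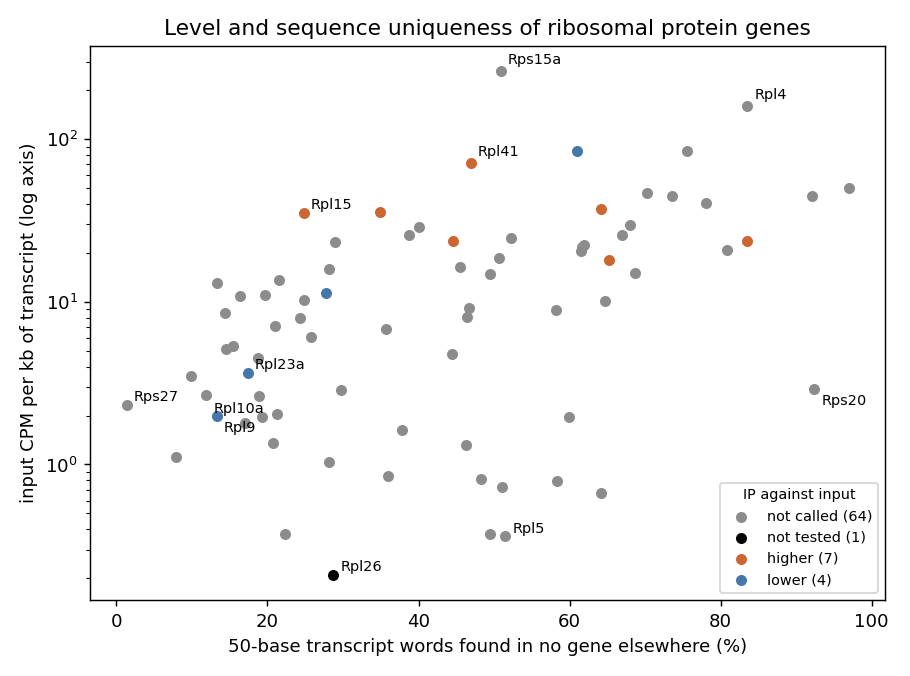
Input level per kb of transcript (vertical, log axis) against the share of 50-base words found in no gene elsewhere (horizontal, %), with 1 point for each of 76 genes and colours for the call in IP against input. Rps27, at 1.35%, lies at 2.33 CPM per kb and Rps15a, at 50.9%, at 262 CPM per kb; the 24 genes under 25% reach at most 35.2 CPM per kb, for Rpl15.

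Taken as a sum, ribosomal protein reads made up 0.147%, 0.129% and 0.108% of gene reads in input replicates 1 to 3. In IP replicates 1 to 3 they made up 0.153%, 0.144% and 0.147%. The groups overlap, because input replicate 1 lies between the IP libraries. The means were 0.128% ± 0.0197 for input and 0.148% ± 0.0048 for IP (SD, n = 3). Reads aligned to several places were 21.1 to 23.3% of all listed reads in input and 32.9 to 35.7% in IP. Their mean share was 22.4% ± 1.21 against 34.4% ± 1.43 (SD, n = 3), with a two-sided exact permutation p of 0.1, the smallest that 3 against 3 libraries allow. Those reads have no gene in the files, and their part in the ribosomal protein values was not tested.

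**Figure D2:**
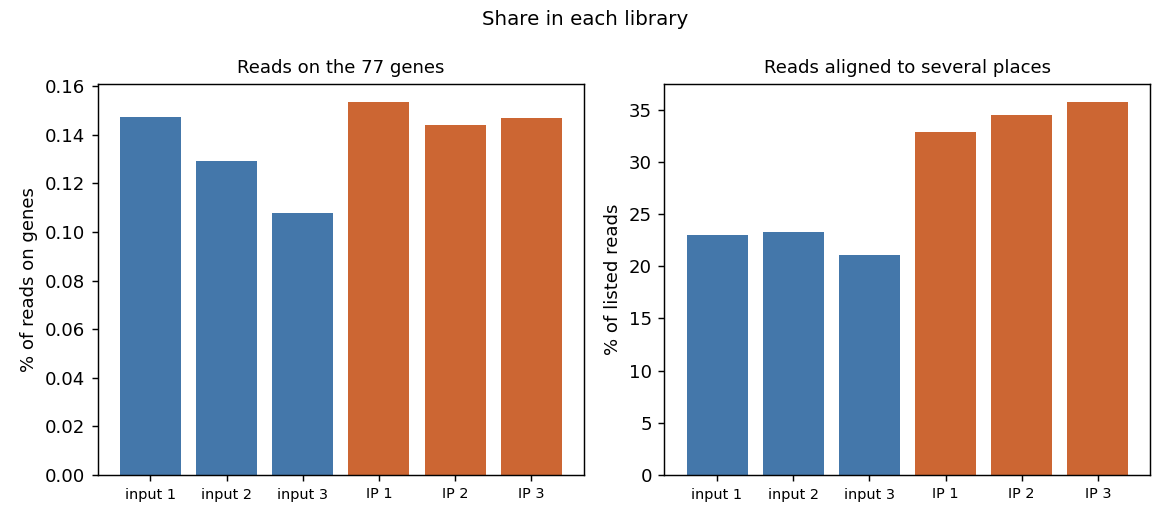
Reads on the 77 genes as a percentage of reads on genes (left) and reads aligned to several places as a percentage of listed reads (right), with 1 bar per library. Input falls from 0.147 to 0.108% on the left while the IP bars stay between 0.144 and 0.153%, and on the right all IP bars stand above all input bars.

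The ribosomal protein genes differed more among the input libraries than among the IP libraries. This was not so over all genes with at least 10 reads in a pair of libraries. Against counts in proportion to depth, chi-square per degree of freedom was 22 to 28.8 between inputs and 56.3 to 65.2 between IPs. That measure also rises with depth, which was greater in IP. Input replicate 1 was the highest of the 3 inputs for 59 of the 77 genes, replicate 2 for 14 and replicate 3 for 4. Summed over the 77 genes, the level was 1514, 1296 and 1157 CPM in the inputs and 1462, 1394 and 1445 CPM in the IPs. Among ribosomal protein genes of at least 10 CPM, the median of the SD as a share of the mean was 20.8% in input and 8.17% in IP. The difference from input therefore depended on which libraries were set against each other. Input and IP replicates of the same number shared a sequencing lane, per the labels. The median log2 ratio of IP to input over the tested genes was -0.13 in lane 1, 0.09 in lane 2 and 0.43 in lane 3. Over all genes tested it was between -0.03 and -0.01 in the same lanes. In lane 3 the ratio was above that of lane 1 for 66 of 76 genes.

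IP and input were then compared gene by gene with edgeR's quasi-likelihood test over all 16506 genes that passed its filter on low counts, with Benjamini-Hochberg adjustment and a threshold of 0.05. The filter kept 76 of the 77 ribosomal protein genes. The exception, Rpl26, at the rim of the exit tunnel, had 4, 7 and 4 reads in the inputs and 8, 10 and 21 reads in the IPs. Of the 76, 7 were higher in IP and 4 were lower, which is 14.5% of them, against 44.8% of all genes tested. Higher calls were 9.21% of the ribosomal protein genes against 21.3% of all genes, and lower calls 5.26% against 23.4%. At an unadjusted p under 0.05 there were 16, against 52.2% of all genes tested. The 7 higher genes all encode 60S proteins, as do 2 of the 4 lower genes, and the other lower 2 encode 40S proteins. The median log2 fold change was 0.153 for the 45 tested 60S genes, 28 of them above 0. For the 31 tested 40S genes it was 0.1025, with 21 above 0. A difference between the subunits was not tested.

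The changes were small in most genes. The log2 fold change lay within ±1 for 70 of the 76, with quartiles of -0.13 and 0.35. Its median was 0.15, with 49 genes above 0 and 27 below, against -0.02 over all genes tested. An offset for exonic length (all annotated exons of a gene merged) and GC content was also fitted. With it the ribosomal protein median was -0.13, with 3 genes called higher and 12 lower. That fit held 14494 genes with an annotation, all 76 ribosomal protein genes among them; the same genes without the offset gave 7 higher, 4 lower and a median of 0.11. Without input replicate 1 the median was 0.33 and 12 genes were called higher, and without input replicate 3 the median was 0.02. With library totals in place of TMM scaling, 10 genes were called higher and 3 lower. The 3 IP libraries were all above the 3 inputs for 17 genes, or 22.4%, against 26.5% of all genes, and all below for 11 genes, or 14.5%, against 29.5%. Groups that did not overlap in either direction were 36.8% of the ribosomal protein genes and 56.1% of all genes tested. The shares called and not overlapping were thus below those of all genes.

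**Figure D3:**
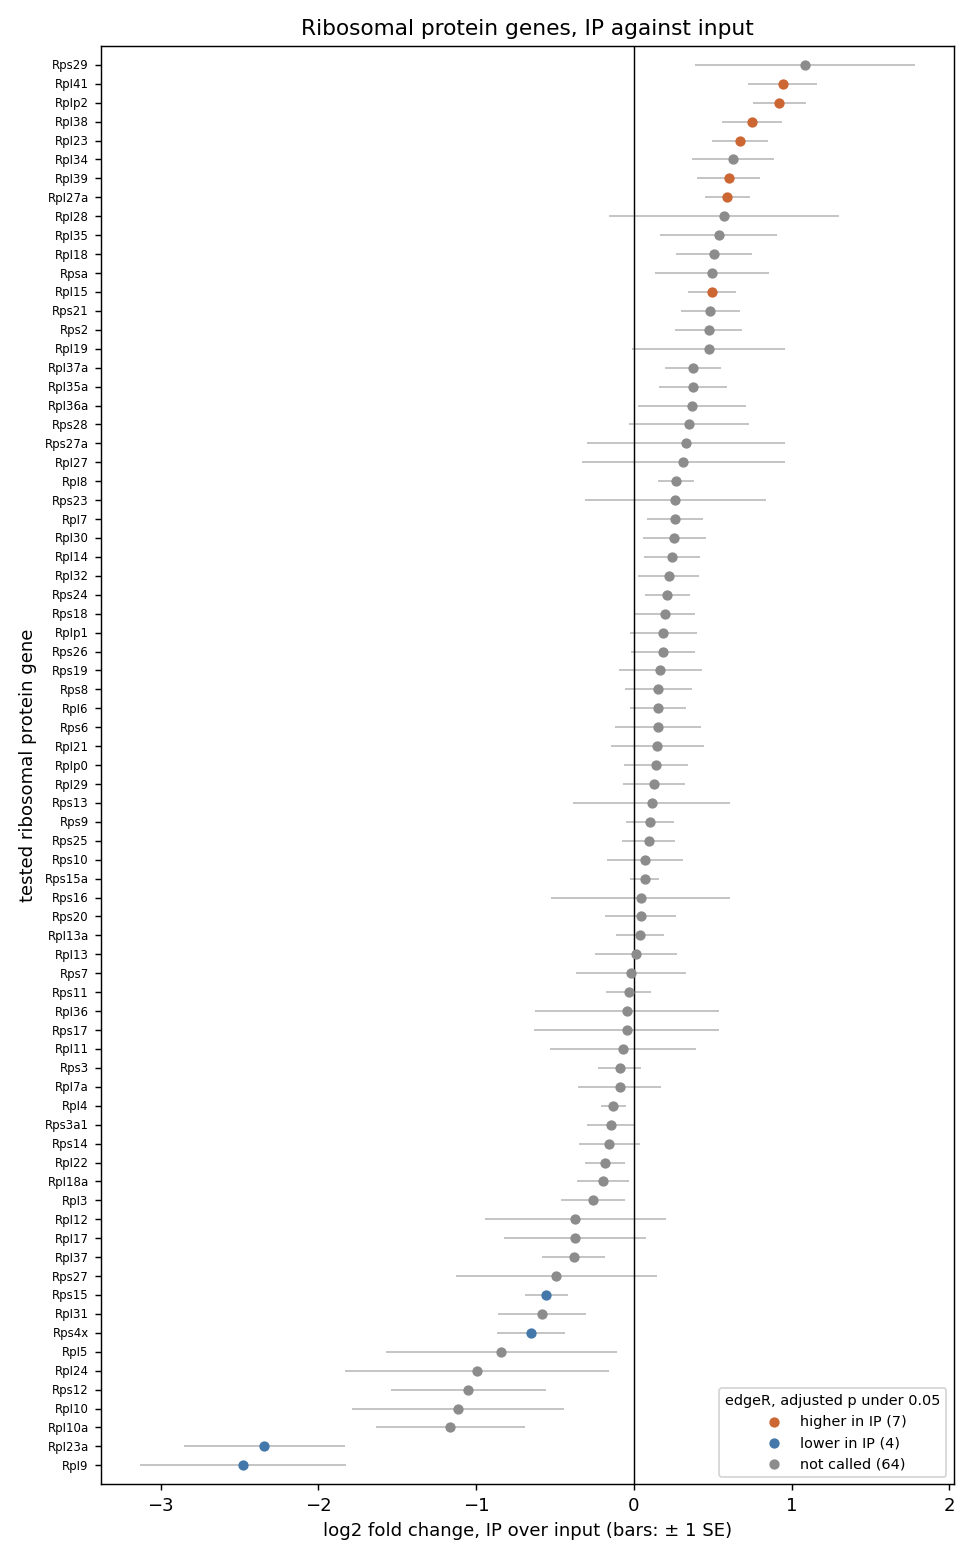
Log2 fold change of IP over input for 75 of the 76 tested genes, sorted, with bars of ± 1 SE from the edgeR fit. Orange marks the 7 genes called higher and blue the 4 called lower; 69 of those drawn lie within ±1, and the wide bars belong to genes with few reads.

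Rpl10a (chr17:28328471-28331033, plus strand), the protein of the L1 stalk that carries the tag, comes first. Positions here and below are those of the whole gene in GENCODE M21 (GRCm38). Its level was 1.44, 2.62 and 1.80 CPM in the inputs and 0.807, 0.817 and 0.996 CPM in the IPs. These values rest on 53, 132 and 88 reads against 45, 57 and 68 reads. All IP values lie below all input values. The log2 fold change was -1.16 ± 0.48 (SE) with an adjusted p of 0.0657 by edgeR, so it was not called; DESeq2 gave 0.0415 and the offset for length and GC content 0.0261. With only 3 of 602 coding words its own, these counts do not check the fusion, and the tag itself was not measured here.

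The proteins near the catalytic centre and at the subunit interface included 2 called genes of 7, both higher. Rpl41 (chr10:128548114-128549305, minus strand), the smallest ribosomal protein, which bridges the subunits, had 45.0, 25.7 and 22.3 CPM in the inputs and 65.3, 52.1 and 61.2 CPM in the IPs. Every IP library was above every input, and input replicate 1 stood apart from the other inputs. The mean went from 31.0 ± 12.3 to 59.5 ± 6.76 CPM (SD, n = 3), a log2 fold change of 0.94 ± 0.22 (SE; edgeR adjusted p 0.00427). Rpl41 has a coding sequence of 78 bases, and 0 of its 29 coding words were its own. The offset for length and GC content uses its exonic length, 1168 bases. With that offset its log2 fold change was 0.55 (edgeR adjusted p 0.0587).

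Rpl23 (chr11:97777527-97782437, minus strand), which lies at the interface, had 24.1, 16.7 and 16.4 CPM in the inputs and 34.4, 25.9 and 30.8 CPM in the IPs. The groups did not overlap, although the lowest IP was close to the highest input. The log2 fold change was 0.67 ± 0.18 (SE; edgeR adjusted p 0.00876), and without input replicate 2 the call was lost, at an adjusted p of 0.0535. It was also lost with the offset for length and GC content, at a log2 fold change of 0.37 (adjusted p 0.119). Rpl8, at the peptidyl transferase centre, had the highest input level per kb after Rpl41 in this group, 44.7 CPM per kb. Its log2 fold change was 0.27 (adjusted p 0.0735). Rpl10, which joins the subunit last and is needed for subunit joining, had -1.12 (adjusted p 0.201), and at most 1.14 CPM in any library.

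In the P stalk, which recruits the elongation factors, 1 of 4 genes was called. Rplp2 (chr7:141447370-141451585, plus strand) had 17.7, 14.96 and 12.4 CPM in the inputs and 25.9, 26.1 and 33.2 CPM in the IPs. The groups were well separated, with the highest IP in replicate 3, where the input was lowest. Its mean went from 15 ± 2.63 to 28.4 ± 4.13 CPM (SD, n = 3), and the log2 fold change was 0.92 ± 0.17 (SE; edgeR adjusted p 0.000989). Its partners in the stalk were not called: the log2 fold change was 0.19 for Rplp1 (adjusted p 0.499), 0.14 for the base protein Rplp0 (0.610) and -0.37 for Rpl12 (0.633). Whether Rplp2 differs from Rplp1 in its change was not tested. The 5S ribonucleoprotein, whose proteins Rpl5 and Rpl11 also bind the p53 regulator Mdm2, had log2 fold changes of -0.84 (adjusted p 0.379) and -0.07 (0.918). Both were low, at most 0.994 CPM for Rpl5 and 1.47 CPM for Rpl11 in any library.

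Among the 8 tested genes of the exit tunnel and its rim, 1 was higher and 1 was lower. Rpl39 (chrX:37082520-37085402, minus strand), a small protein inside the tunnel, had 18.6, 13.3 and 11.5 CPM in the inputs and 24.1, 17.6 and 24.0 CPM in the IPs. The groups overlap, since IP replicate 2 lies below input replicate 1. The log2 fold change was 0.60 ± 0.20 (SE; edgeR adjusted p 0.0286), and the call was lost without input replicate 2, input replicate 3, IP replicate 1 or IP replicate 3. With the offset for length and GC content it was lost at a log2 fold change of 0.29 (adjusted p 0.282).

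Rpl23a (chr11:78180932-78183584, minus strand), at the tunnel exit, where it receives the signal recognition particle, had 2.02, 1.83 and 2.29 CPM in the inputs and 0.466, 0.358 and 0.381 CPM in the IPs. These were 74, 92 and 112 reads against 26, 25 and 26 reads. The groups were far apart, and the log2 fold change was -2.34 ± 0.51 (SE; edgeR adjusted p 0.00285). Only 17.4% of its words were its own, and 28 pseudogenes share the rest. Rpl4, the highest of all 77 genes, had 254, 250 and 229 CPM in the inputs and 227, 224 and 219 CPM in the IPs. Its IP values were all below its inputs, and the log2 fold change was -0.13 ± 0.08 (SE; edgeR adjusted p 0.225), not called. With the offset for length and GC content Rpl4 was called lower, at -0.42 (0.0015).

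The remaining 23 genes of the large subunit had 3 higher and 1 lower call, with a median log2 fold change of 0.24. Rpl38 (chr11:114668524-114672331, plus strand), known for a role in translating Hox messenger RNAs in the embryo, had 9.53, 8.21 and 6.55 CPM in the inputs and 14.6, 12.7 and 13.6 CPM in the IPs. Rpl27a (chr7:109519147-109522367, plus strand) had 49.9, 45.4 and 33.8 CPM in the inputs and 71.8, 61.5 and 61.3 CPM in the IPs. For both, each IP library was above each input. The log2 fold changes were 0.75 ± 0.19 for Rpl38 (SE; edgeR adjusted p 0.00681) and 0.59 ± 0.14 for Rpl27a (0.00554). Of their coding words, 0 of 164 for Rpl38 and 0 of 398 for Rpl27a were their own.

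Rpl15 (chr14:18267823-18271391, minus strand), a core protein of the large subunit, had 34.5, 23.3 and 27.0 CPM in the inputs and 43.4, 39.4 and 36.4 CPM in the IPs. The groups did not overlap, by a narrow margin. The log2 fold change was 0.50 ± 0.15 (SE; edgeR adjusted p 0.0199), and the adjusted p rose to 0.108 without input replicate 2, 0.0651 without input replicate 3 and 0.0561 without IP replicate 1. With the offset for length and GC content the log2 fold change was 0.28 (adjusted p 0.17). Of the 566 coding words of Rpl15, 0 were its own. Rpl9 (chr5:65388364-65391444, minus strand), which lies near the stalk base, had the lowest log2 fold change of all 76 genes, -2.48 ± 0.65 (SE; edgeR adjusted p 0.00872). It was counted at 58, 86 and 39 reads in the inputs and 13, 14 and 20 reads in the IPs, that is 1.58, 1.71 and 0.798 CPM against 0.233, 0.201 and 0.293 CPM. All IP values were below all inputs, and without input replicate 2 the adjusted p was 0.0545. Of the 530 coding words of Rpl9, 0 were its own. Rpl34, with a log2 fold change of 0.63, was not called (adjusted p 0.0681). It was called higher with lane as a block (0.0463), library totals (0.0455) or no filter (0.0403). It was also called higher without input replicate 1 (0.0142), and in no other fit.

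**Figure D4:**
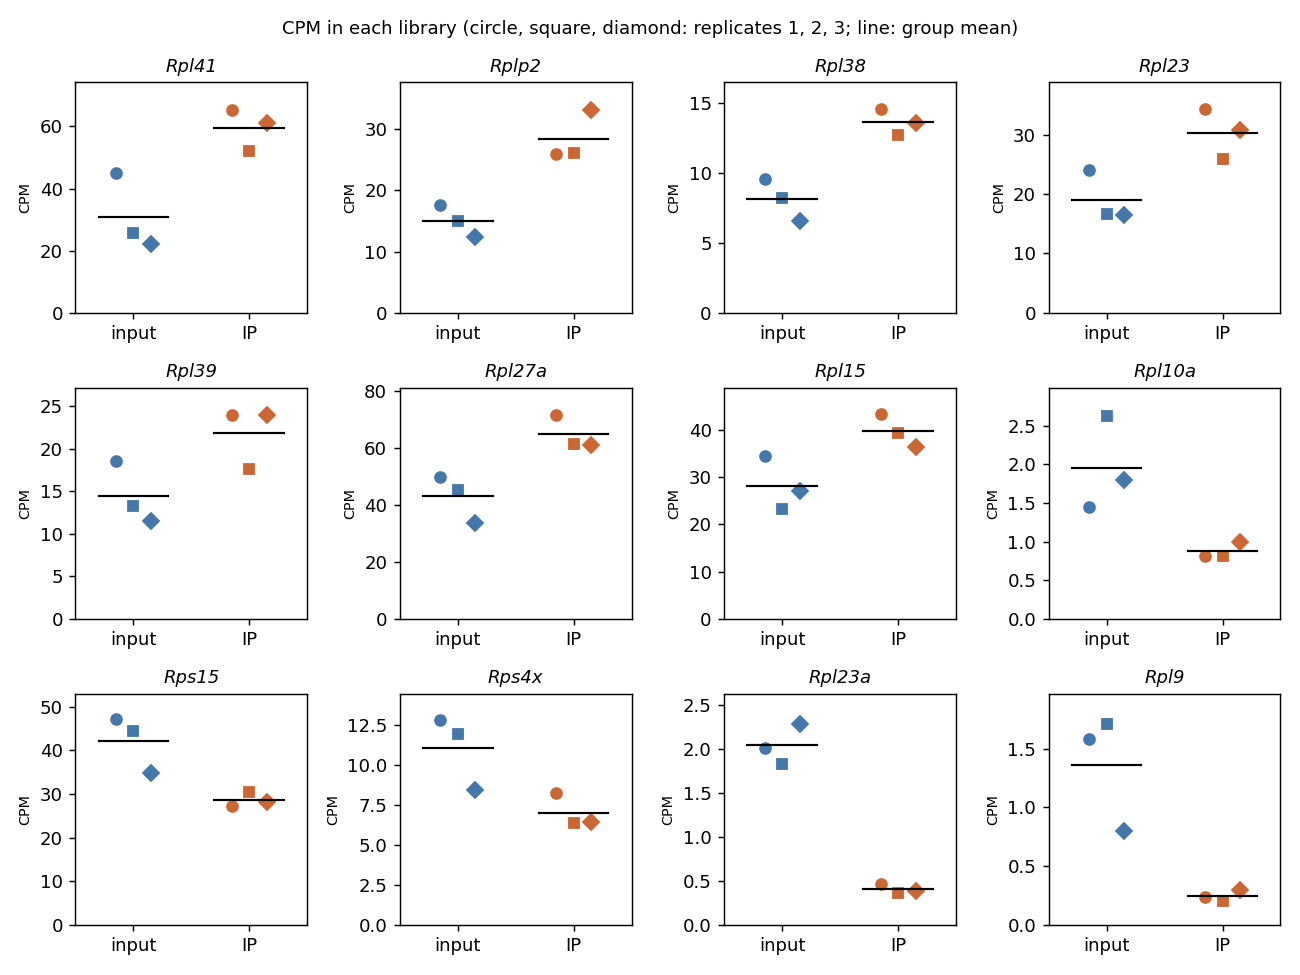
CPM in each library for the 11 called genes and Rpl10a, with circles, squares and diamonds for replicates 1, 2 and 3 and a line at the group mean; each panel starts at 0 and has its own scale. Rpl39 is the called gene whose groups overlap, and input replicate 1 (circle) is the highest input for all 7 higher genes.

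In the small subunit no gene was called higher in the main edgeR fit, at an adjusted p under 0.05, and 2 of 31 were called lower. Some alternative fits called Rps21 higher, as given below, and the fit without input replicate 1 also called Rps24 higher. Rps15 (chr10:80292453-80294114, plus strand), in the head near the decoding centre, had 47.1, 44.4 and 34.7 CPM in the inputs and 27.3, 30.4 and 28.1 CPM in the IPs. The IP libraries lay close together and below every input, and the log2 fold change was -0.56 ± 0.14 (SE; edgeR adjusted p 0.00579). Rps12, also in the head, had -1.05 (adjusted p 0.103), and Rps29 the highest value of all 76 genes, 1.08 (0.232), from at most 0.718 CPM.

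In the body, Rps4x (chrX:102184941-102189394, minus strand) had 12.8, 11.9 and 8.43 CPM in the inputs and 8.25, 6.37 and 6.46 CPM in the IPs. The groups did not overlap, but input replicate 3 and IP replicate 1 nearly met. The log2 fold change was -0.65 ± 0.22 (SE; edgeR adjusted p 0.0276), and the call was lost with library totals in place of TMM scaling (0.061). It was also lost without input replicate 1 or 2 and without IP replicate 2 or 3. Rps15a, the highest 40S gene, had 164, 159 and 181 CPM in the inputs and 178, 188 and 161 CPM in the IPs, and the groups overlap fully. For Rpsa, which is also known as a laminin receptor, it was 0.50 (adjusted p 0.290). Rps21 had 0.48 and was not called in the main edgeR fit (adjusted p 0.0538). It was called higher with lane as a block (0.0386), library totals (0.0318), no filter (0.0281) or DESeq2 (0.046). It was also called higher without input replicate 1 (0.0144) or IP replicate 2 (0.0459), and in no other fit.

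Across the 16 alternative fits, Rpl27a, Rpl38 and Rplp2 were called higher in all 16 and Rpl23a and Rps15 lower in all 16. Rpl41 was called in 15 of 16, Rpl23 in 13, Rpl15 and Rps4x in 11 each and Rpl39 in 10. Rpl9, which did not pass the filter of 1 CPM in 3 libraries, was called in 14 of the 15 fits that held it. Over those fits the log2 fold change ran from 0.54 to 1.07 for Rplp2, from 0.39 to 0.73 for Rpl27a and from -2.55 to -2.24 for Rpl23a, with the lowest values of Rplp2 and Rpl27a under the offset for length and GC content. By share of words of their own, of the 24 genes under 25% 1 was higher and 2 lower, and their median log2 fold change was -0.04. In the class between 25 and 50%, 3 of 22 tested genes were higher and 1 lower, with a median of 0.26. At 50% or more, 3 of 30 were higher and 1 lower, with a median of 0.12. The difference between the classes was not tested.

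The start sites of the called genes are shown for the TOP run that gives the class its name. Each line holds 30 bases on the gene's strand, with the annotated RefSeq start (GRCm38.p6) after the first 15, and capitals mark the longest run of a C followed by at least 4 C or T that begins within 10 bases of the start. The higher genes come first.
Rpl15: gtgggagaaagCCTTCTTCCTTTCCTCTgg
Rpl27a: gacttcgtgagCTCCTCCCTTTTCCCTTTC
Rpl38: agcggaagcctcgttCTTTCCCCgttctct
Rpl39: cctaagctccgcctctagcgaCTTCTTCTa
Rplp2: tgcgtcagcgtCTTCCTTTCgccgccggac
Rpl23: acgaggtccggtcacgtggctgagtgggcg
Rpl41: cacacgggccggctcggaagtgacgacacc
Rpl9: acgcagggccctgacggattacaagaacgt
Rps15: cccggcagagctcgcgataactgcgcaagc
Rps4x: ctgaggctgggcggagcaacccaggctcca
Of the 7 higher genes 5 held such a run, and of the 3 lower genes with a window none did, Rpl23a having no entry. The windows lie, for example, at chr14:18270972-18271001 on the minus strand for Rpl15 and chr7:141447636-141447665 on the plus strand for Rplp2. A run was found in 34 of the 57 ribosomal protein genes with a window (59.6%), against 33.3% of all 27025 genes. A missing run says only that these letters are not near the annotated start.

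Over the longer window, from 250 bases before the start to 50 after, other words were searched on both strands, and none of them contains another. CCGGAAG, the core bound by Ets factors such as Gabpa, was in 42.1% of ribosomal protein genes and 9.93% of all genes. GGGCGG, the core of the Sp1 site, was in 61.4% and 38.2%, and AAGATGGC, the core of the Yy1 motif, in 8.77% and 3.19%. TATAAA, the TATA box, was in 10.5% and 15.7%. These are matches of letters and not sites in use.

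The wider pathway was read from the same fit, where 21.3% of all genes were higher and 23.4% lower. Of 8 tested paralogues and fusion proteins outside the symbol rule, 2 were higher (25%) and 0 lower. They were Rps4l, a paralogue of Rps4x, which rose from 3.21 to 8.28 CPM (log2 fold change 1.37; edgeR adjusted p 0.000715), and Rpl7l1, which rose from 11.6 to 22.8 CPM (0.97; 0.000256). Rps4l and Rps4x thus moved in opposite directions. Gnb2l1, the gene of the 40S scaffold protein Rack1, had 31.8 and 35.1 CPM (adjusted p 0.499). Among 16 other TOP messenger RNAs, 3 were higher (18.8%) and 2 lower (12.5%); with the offset for length and GC content 4 were higher and 3 lower. Btf3, a subunit of the nascent chain complex, rose from 8.77 to 15.9 CPM (0.86; edgeR adjusted p 0.00146), and had 0.52 with that offset (0.0278). Pabpc1, the poly(A)-binding protein, fell from 136 to 54.5 CPM (-1.32; 1.68e-06). Eef1a1, the elongation factor that brings transfer RNA to the ribosome, had 188 and 197 CPM (adjusted p 0.609).

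In the mTOR and TOP signalling list of 15 genes, 2 were higher (13.3%) and 4 lower (26.7%). With the offset 1 was lower, as without input replicate 3, and 2 were lower with library totals, without input replicate 2 or without IP replicate 2. Without input replicate 1, input replicate 2 or IP replicate 3, 1 was higher. Rheb, the activator of mTOR, rose from 89.2 to 227 CPM (1.35; edgeR adjusted p 1.22e-06), and Rps6kb2, an S6 kinase, fell from 6.39 to 3.28 CPM (-0.96; 0.0179), a call lost without input replicate 1 (0.0584) or 2 (0.0865). Of 30 ribosome assembly factors, 11 were higher (36.7%) and 3 lower (10%). With the offset 7 of 28 were higher and 1 lower, without input replicate 3 6 were higher and 1 lower, and 1 was lower with library totals or without IP replicate 3. Nop10, of the pseudouridylation complex, rose from 28.6 to 58.2 CPM (1.03; edgeR adjusted p 0.000189), and Mdn1, the large ATPase that releases factors from the pre-60S particle, fell from 75.02 to 16.2 CPM (-2.21; 7.64e-07). Ncl, nucleolin, the most abundant, went from 224 to 182 CPM (-0.29; 0.0202). That call was lost with library totals (0.0977), with the offset (-0.08; 0.527) and without input replicate 1, input replicate 3, IP replicate 2 or IP replicate 3 (0.0553 to 0.106).

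Of 6 dedicated chaperones of ribosomal proteins, 3 were higher (50%) and 1 lower (16.7%), and with the offset 1 was higher and 0 lower. Pdcd2, the chaperone of Rps2, rose from 10.3 to 17.0 CPM (0.72; edgeR adjusted p 0.0110), a call lost with the offset (0.49; 0.0672). Heatr3, the importer of Rpl5, had -0.40 (edgeR adjusted p 0.0492), a call lost with library totals (0.144), with no filter (0.0538), with the offset (0.0635) and in all fits with 1 library left out but that without IP replicate 1 (0.0723 to 0.169). Tsr2, the chaperone of Rps26, rose from 39.3 to 57.2 CPM (0.54; 0.00151). Of 13 genes of RNA polymerase I and its factors, 3 were higher (23.1%) and 0 lower, and with the offset 1 was higher and 1 lower. Polr1d, a subunit shared by polymerases I and III, rose from 20.4 to 37.6 CPM (0.88; edgeR adjusted p 0.000485), and Rrn3, the initiation factor, had -0.15 (0.205).

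The cell type makeup of the RNA differed between the groups. Of 8 neuronal markers 6 were higher in IP, and their summed level was 19350 to 22650 CPM in the inputs and 28120 to 30040 CPM in the IPs. All 6 astrocyte markers were lower, with sums of 452 to 495 CPM against 93.4 to 117 CPM. All 6 oligodendrocyte markers were lower, with 1162 to 1317 CPM against 144 to 168 CPM. All 6 microglial markers were lower, with 41.6 to 48.3 CPM against 1.70 to 3.09 CPM. Of the 5 tested endothelial markers 4 were lower, with 3.79 to 7.53 CPM against 0.0879 to 0.915 CPM, and Tek had 0 reads in all IP libraries. The part of this difference in the ribosomal protein values was not tested. These are levels of RNA in the input and in the capture, and numbers of cells were not measured.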

How the data were processed

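The authors deposited raw counts of reads per gene symbol for 3 input and 3 IP libraries. The submitters' processing notes name STAR 2.0.0e, HTSeq and the build mm10. For HTSeq, the version, the use of strand and the annotation were not given in the sources used here, so a gene and an overlapping or antisense partner cannot be told apart. Library sizes and tests used gene rows only; left out were reads outside genes (17.2% ± 0.718 of listed reads in input, 8.78% ± 0.162 in IP), reads matching several genes (8.99% ± 0.856 and 1.82% ± 0.0771), reads aligned to several places (in the report) and a row called unknown. Reads on genes numbered 37696125 to 52360452 in input and 53147173 to 67559533 in IP, so a floor of 3 reads is 0.043 to 0.0817 CPM, which covers counting error only.

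The test was edgeR 4.0.16 (R 4.3.3) with TMM scaling, its default filter, a group term alone and two-sided Benjamini-Hochberg adjusted p under 0.05, checked on simulated data; SE come from the test statistic. Named were Rpl10a, called genes, per role the highest by CPM per kb and both extremes of fold change, genes under the filter, and in each pathway list the called extremes and the most abundant gene. Other named genes were chosen after their values were seen. One gene is included in all counts but not reported here by name. The members and lists were chosen with earlier results of these data known. Words were compared, on both strands, with GENCODE M21 transcripts of genes that do not overlap the gene, not with the whole genome. RefSeq windows matched 57 of 77 symbols. Alternatives were RLE factors, library totals, TMM without ribosomal protein genes, no filter, 1 CPM in 3 libraries, DESeq2 1.42.0, a length and GC offset, the annotated genes of that fit without the offset (chosen after seeing the data), a block for the replicate number, and each library left out in turn. Per the labels, libraries with the same replicate number ran in the same lane; deviations of same-numbered libraries correlated at 0.125, 0.086 and 0.0466, against -0.0835 to 0.00663 for the others.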

Additional observations from a re-analysis of the deposited data

Results flagged for a closer look

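Reads aligned to several places carry no gene in the files and enter no gene comparison. They made up 32.87%, 34.5% and 35.72% of listed reads in IP replicates 1 to 3, above the 22.99%, 23.28% and 21.05% of input replicates 1 to 3.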

How the results depend on the processing

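The count of ribosomal protein genes called higher was 7 and of those called lower 4. With an offset for length and GC content they were 3 and 12 (7 and 4 for the same annotated genes without the offset), and with both the offset and a replicate block 4 and 10. Fits with 1 library left out gave 4 to 12 higher, 2 to 4 lower and a median log2 fold change of 0.02 to 0.33, with the extremes of 12 higher without input replicate 1 and of 4 higher and 2 lower without input replicate 2. Among the 30 genes with at least 50% of words their own, 3 were higher and 1 lower, as fewer genes were counted. The replicate block, which pairs libraries of a lane, gave 9 higher and 4 lower and a median of 0.15. Log2 fold changes near 0 that changed sign, none called, were those of Rpl11 (0.0281 with library totals, -0.196 to 0.00973 with 1 library left out), Rpl32 (-0.0501 with the offset, -0.00817 with offset and block) and Eef1a1 (-0.174 and -0.176). Depth limited genes such as Rpl26, Rps29, Rpl24 and Rpl28, which were under 1 CPM in all libraries.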
